A study of Homo sapiens with 3 samples.

Results

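The alpha and beta globin loci were described in the list of capture targets behind 3 branchpoint libraries of K562 cells. K562 is an established human leukaemia line with erythroid features that is known to make embryonic and fetal rather than adult beta-type haemoglobin. Per the labels, the libraries come from 3 biological replicates of this line and form a single group. They were made from total RNA depleted of rRNA (5 µg each) with ERCC spike-in RNA at 1% in replicates 1 and 2 and 1.08% in replicate 3. The list is shared by all 3 libraries, so each target has 1 deposited value, there is no replicate error, and no test between samples was possible. Read alignments and branchpoint calls were not analysed here, and the list shows what was targeted, not what was captured.

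A target belonged to the globin loci when it lay fully inside chromosome 11 from 5.24 to 5.31 Mb (the beta window) or chromosome 16 from 0.19 to 0.24 Mb (the alpha window), on build hg19. This rule found 18 of the 377858 targets, 12 in the beta window and 6 in the alpha window. The windows are labelled with 10 genes. HBB, HBD, HBG1, HBG2 and HBE1 belong to the beta window. HBZ, HBM, HBA2, HBA1 and HBQ1 belong to the alpha window.

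Haemoglobin carries oxygen as a tetramer of alpha-type and beta-type chains. HBZ and HBE1 encode the embryonic chains zeta and epsilon, HBG1 and HBG2 the fetal gamma chains, HBA1 and HBA2 the alpha chains used from fetal life on, and HBB and HBD the adult beta chain and the minor adult delta chain. HBM and HBQ1 are further alpha-like genes. Each of the 10 genes has the same layout of 3 coding exons and 2 introns. During splicing the cut 5′ end of an intron is joined to the branchpoint, a base near the 3′ end of the intron, which is why the design addressed the 100 nt at both ends of introns.

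The deposited targets carry no gene names, and no annotation of their build was used. They were therefore named by length: the widths of neighbouring targets and the gap between them were compared with targets rebuilt from GENCODE release 29 by the stated recipe, which needs no coordinate of another build. Within 1 nt, 17 of the 18 targets had a single match (11 of 12 in the beta window, 6 of 6 in the alpha window), and the remaining one matched within 2 nt. Of the 18, 15 were matched to 6 of the 10 genes. The other 3 were 2 targets of HBBP1, a beta-like pseudogene, and 1 target of AC104389.4, a gene of release 29 whose transcripts overlap the beta locus. AC104389.4 also shared 1 of the targets matched to HBE1. The design itself was drawn on release 12, so gene parts named here are those of release 29. The rebuilt set holds intron ends only, so that all 18 targets were matched to introns follows from the method.

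A shared landmark of the family is the second exon, which is 223 nt long in all 5 beta-type genes and 205 nt long in all 5 alpha-type genes. For HBD, HBM and HBQ1 it appeared in the list as a gap between a pair of targets, 1 nt longer than the exon, while the targets of the other genes were matched on other gaps. The gap was 224 nt between the targets of HBD, and 206 nt between the pair of HBM and also between the pair of HBQ1. The exons that fill the HBD and HBM gaps are shown because their lengths help to place the targets on either side. They are the coding-strand sequences of transcripts HBD-206 and HBM-201 in GENCODE release 29, with the first and last 3 bases, which face the targeted introns, in capitals.
HBD exon 2: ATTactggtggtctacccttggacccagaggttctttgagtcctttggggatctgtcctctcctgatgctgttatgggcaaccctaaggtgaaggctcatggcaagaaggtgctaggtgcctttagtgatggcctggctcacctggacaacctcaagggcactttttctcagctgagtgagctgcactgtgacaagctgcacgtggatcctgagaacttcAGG
HBM exon 2: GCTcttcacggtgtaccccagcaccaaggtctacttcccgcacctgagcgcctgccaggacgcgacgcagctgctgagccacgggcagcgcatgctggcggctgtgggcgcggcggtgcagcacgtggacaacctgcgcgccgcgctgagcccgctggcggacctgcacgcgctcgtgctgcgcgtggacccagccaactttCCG

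The globin genes were split in how far their introns were listed. For HBD, HBM and HBQ1 all 4 intron ends were listed, for HBB 3 of 4 and for HBZ 2 of 4. No end of either intron was listed for the other 5 genes, namely the embryonic HBE1, the fetal HBG1 and HBG2, and HBA1 and HBA2. Over the 20 introns of 1 reference transcript per gene, the 3′ end that holds the branchpoint was listed for 9 and the 5′ end for 8. An end counted as listed on any overlap with a matched target. This included the 3′ end of HBB intron 1, with 76 of its 100 nt left in the rebuilt set. Both ends were listed for 8 introns (40.0%) and neither end for 11 (55.0%). The labels state that both ends were targeted for 76.4% and at least 1 end for 90.2% of annotated introns, against 45.0% (9 of 20) with at least 1 end here. The denominators differ, since the labels count all annotated introns of release 12.

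**Figure D1:**
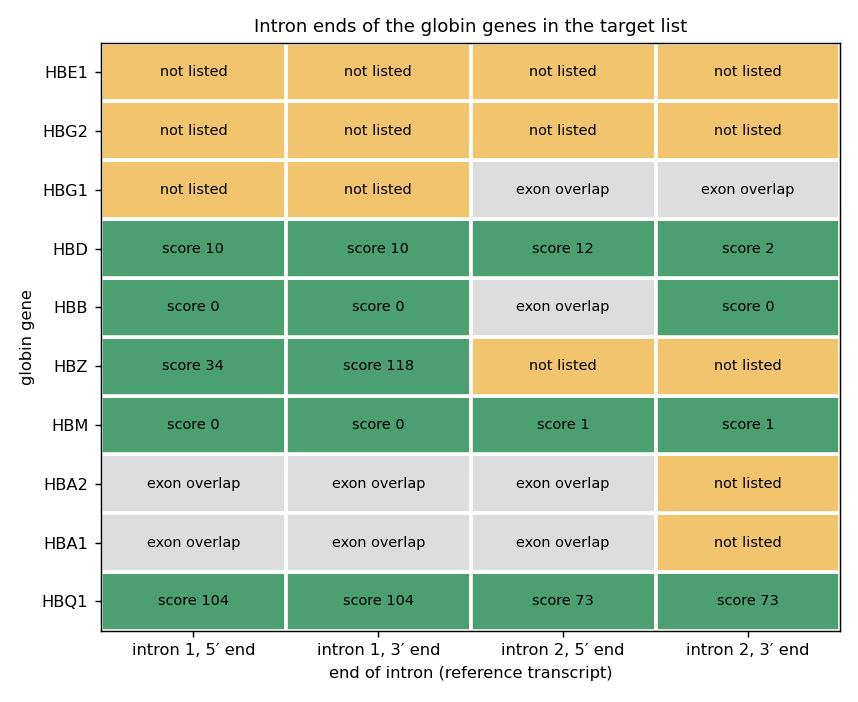
Each cell is 1 end (column) of 1 intron of a globin gene (row) in its reference transcript. Green cells were listed, with the deposited score of the target that holds the end or part of it. Yellow cells were not listed although the rebuilt set keeps bases there (only 8 bases each in HBA2 and HBA1). Grey cells overlap an exon of another release 29 transcript. HBE1, HBG2, HBG1, HBA2 and HBA1 have no green cell.

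Some of the unlisted ends overlapped exons of release 29, a class of sequence that the design left out, and others did not. Of the 23 unlisted ends, 9 had no base left in the rebuilt set. These were the 5′ end of HBB intron 2, both ends of HBG1 intron 2, and 3 of the 4 ends of each of HBA2 and HBA1. The other 14 had bases left: all 4 ends of HBE1, all 4 of HBG2, both ends of HBG1 intron 1 and of HBZ intron 2, and the last 8 nt of intron 2 in HBA2 and in HBA1. Whether the same exons were annotated in release 12 was not tested.

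The numbering of the targets was also broken in both windows, though not at every unlisted end. Targets are numbered along each chromosome, and the beta window ran from number 1515 to 1535 with 9 of 21 numbers missing (42.9%), the alpha window from 66 to 74 with 3 of 9 missing (33.3%). Over the whole list 1.24% of numbers were missing. Breaks fell between 4 of 16 neighbouring pairs (25.0%), 2 in each window, against 0.876% of all neighbouring pairs in the list. The pairs of a locus share transcripts and are not independent.

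All 4 breaks lay in gaps over 12 kb in which the rebuilt set held unlisted ends of globin genes. In the beta window 6 numbers were missing between the HBBP1 pair and the AC104389.4 target, where 5 rebuilt targets were unlisted: HBBP1 intron 1 (121 nt), HBG1 intron 1 (122 nt) and 3 of HBG2. Another 3 numbers were missing between AC104389.4 and the first HBE1 target, where the rebuilt set held 10 unlisted targets, 3 of them on the 2 introns of HBE1. In the alpha window 1 number was missing between HBZ and HBM. The rebuilt set held 5 targets there, among them all of HBZ intron 2 (175 nt), and the others lay on HBZP1, a zeta pseudogene. The last break, of 2 numbers, fell between HBM and HBQ1, where the rebuilt set held the 8 nt remnants of HBA2 and HBA1 and 2 targets of Z84721.1. The sources used here do not say which candidate carried a missing number. No number was missing from HBB through HBD to HBBP1, although 4 rebuilt targets of the longer transcripts HBB-202 and HBD-204 were unlisted there.

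Breaks of the sizes seen in the beta window were rare in the list. A break of at least 6 numbers occurred at 52 of all neighbouring pairs (0.0138%), and one of at least 3 at 308 (0.0815%). The alpha breaks were smaller: a break of at least 2 numbers occurred at 792 pairs (0.210%) and one of at least 1 at 3311 (0.876%). These sizes were set by the windows' own breaks after they were seen.

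Each target carried a score, a whole number from 0 to 125 that the sources used here do not explain. Over the whole list the median score was 1 and the mean 6.80, and 52.8% of targets scored above 0. Of the globin targets 15 of 18 scored above 0 (83.3%), 10 of 12 in the beta window and 5 of 6 in the alpha window. In the flanks of the beta window, described below, the share above 0 was 3.70% on the left and 71.4% on the right. In the flanks of the alpha window it was 93.75% on the left and 82.0% on the right, and 85.9% in both together. The share in the alpha window was thus not above that of its flanks together, and these shares were not tested. The mean score was 19.3 ± 25.5 (SD over targets) and the median 10.5 for the 12 beta targets, and 55.0 ± 51.1 and 53.5 for the 6 alpha targets. Scores in both windows ran from 0 to high values, and the spread between targets was about as large as the mean.

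**Figure D2:**
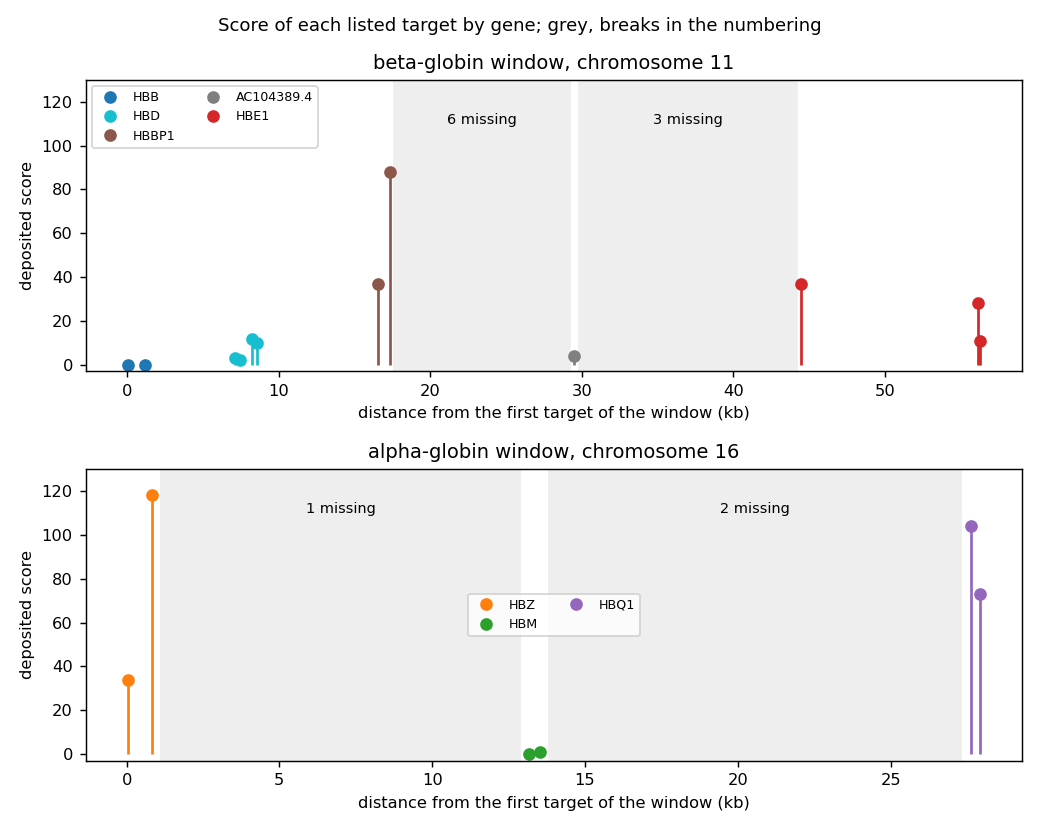
The deposited score (vertical axis) of each target in the beta window (12 targets) and the alpha window (6 targets) against the distance from the first target in kb, coloured by matched gene. Grey spans mark the breaks with 6, 3, 1 and 2 missing numbers; scores run from 0 at HBB to 88 at HBBP1 in the beta window, and from 0 at HBM to 118 at HBZ in the alpha window.

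HBB, the adult beta-globin gene, had the lowest scores of the beta window: both of its targets scored 0. The first, at chr11:5246957-5247056 (100 nt), matched the 3′ end of its intron 2 of 850 nt. The second, at chr11:5248054-5248158, was 105 nt wide and matched intron 1, which is 130 nt long. An exon of another transcript covers the last part of that intron, so that 76 of the 100 nt at its 3′ end were left in the rebuilt set.

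HBD, the delta-globin gene next to it, had 4 targets with scores of 3, 2, 12 and 10. Its intron 2 of 898 nt was represented at the 3′ end by chr11:5254323-5254422, with a score of 2, and at the 5′ end by chr11:5255120-5255219, with a score of 12. Intron 1 of 128 nt was listed nearly whole as chr11:5255444-5255570 (127 nt, score 10). A strip of 39 nt at chr11:5254029-5254067, with a score of 3, matched the 3′ end of the longer intron 2 of transcript HBD-201, cut short by the usual last exon of 255 nt. All 4 scores of HBD were above both of HBB and below both of HBBP1, an order read off the scores and not tested. Of all targets, 44.0% scored 2 or more.

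HBBP1, the pseudogene after HBD, held the highest score of the beta window. The 3′ end of its intron 2, at chr11:5263478-5263577, scored 37, as did 1 target of HBE1, and the 5′ end, at chr11:5264235-5264334, scored 88. Only 0.808% of all targets scored 88 or more. Its intron 1 was not listed. HBBP1 is not among the 10 genes and was named after its values were seen.

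The fetal genes HBG1 and HBG2 had no target matched to them. The single target in their part of the window, chr11:5276396-5276495, scored 4 and matched the 3′ end of an intron of AC104389.4.

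HBE1, the epsilon-globin gene, had 3 targets, none of them on the 2 introns that split its coding sequence. They lay on introns upstream of its usual first exon, in longer transcripts of the gene. The target at chr11:5291389-5291486 scored 37 and matched the 3′ end of the intron just before that exon, and also the 3′ end of an intron of AC104389.4. It was 98 nt wide and matched within 2 nt only. The other pair, at chr11:5303038-5303137 with a score of 28 and at chr11:5303182-5303281 with a score of 11, stood 44 nt apart, on both sides of a small 5′ exon of such a transcript. The gap of 11551 nt between the first and second of these targets was matched in the rebuilt set within 2 nt.

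In the alpha window, HBZ and HBQ1 scored high and HBM low. HBZ, the zeta-globin gene, had both ends of its intron 1 of 887 nt listed. The 5′ end, chr16:203005-203104, scored 34, and the 3′ end, chr16:203791-203890, scored 118, the highest value in either window. Only 0.128% of all targets scored 118 or more.

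HBM had both introns listed whole but for 1 nt. Intron 1 of 178 nt was listed as chr16:216090-216266 (177 nt, score 0) and intron 2 of 107 nt as chr16:216473-216578 (106 nt, score 1). HBQ1, the theta-globin gene, also had both introns listed, with higher scores. Intron 1 matched chr16:230581-230664 (84 nt, score 104) and intron 2 of 109 nt matched chr16:230871-230978 (108 nt, score 73). The scores of HBZ and HBQ1 did not overlap those of HBM, a grouping made after the scores were seen and not tested. Of all targets, 5.38% scored at least 34, the lowest value of HBZ and HBQ1. HBA2 and HBA1, which lie between HBM and HBQ1, had no target.

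The targets on the 2 sides of a break did not share a level. Their scores were 88 and 4 at the first break of the beta window and 4 and 37 at the second. In the alpha window they were 118 and 0 at the first break and 1 and 104 at the second. At each break, 1 of the neighbours scored 37 or more and the other 4 or less, limits that were read off these same scores. The target scoring 4 stood beside both beta breaks, and neighbours without a break were not compared.

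Several short introns were listed whole or nearly whole. An intron of up to 200 nt is covered entirely by its 2 targeted ends, and 5 of the 18 globin targets (27.8%) exceeded the 100 nt of a single end by more than 1 nt without passing 200 nt, against 3.37% of the whole list. They were intron 1 of HBB, intron 1 of HBD, both introns of HBM and intron 2 of HBQ1. Of these, HBD, HBM and HBQ1 targets were each 1 nt shorter than the intron of release 29. HBQ1 intron 1 was also whole, at 84 nt. The HBB target was not a whole intron, since it lacked the last part of intron 1. The other targets hold the 5′ part of an intron and its 3′ part in 1 interval.

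The genes without a listed intron of their own differed in how alike their exon 2 was to that of the other globin genes compared. Exon 2 of HBA2 and HBA1 was identical over 205 nt, and that of HBG1 and HBG2 differed at 1 of 223 nt (99.6% identity). HBE1 was closest to HBG2, with 87.9% identity and 27 differences, and had no end of its 2 introns listed either. HBB and HBD, which were listed, had 94.6% identity (12 differences). HBQ1 had 80.5% identity with both alpha genes, HBZ 71.2% and HBM 64.4%. Only the 10 genes were compared, so the pseudogenes HBBP1 and HBZP1 and the rest of the genome were left out. Exon identity is a property of release 29 transcripts, and intron sequences were not compared. The labels state that repeats and highly transcribed parts were left out, and the part of either in the unlisted ends was not tested.

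The flanks of 0.3 Mb on each side set the windows in context, and the 2 loci differed in surroundings. Left of the beta window, 26 of 27 targets scored 0, among them all 10 matched to MMP26, a matrix metalloproteinase gene. The exception scored 1, at chr11:5227964-5228063. Right of it, 14 targets averaged 23.0 ± 31.0 (SD over targets) with a median of 10.5, and 4 of them were at 0. The 3 highest scored 108 (chr11:5366902-5367001), 63 (chr11:5367584-5367683) and 47 (chr11:5367130-5367229), and all 3 matched OR51B5, an olfactory receptor gene. Those of 108 and 47 matched AC104389.4 as well. A gene was matched for 21 of the 27 left flank targets and for 7 of the 14 right flank targets. In the window, AC104389.4 matched the target with a score of 4 and shared with HBE1 the target with a score of 37. The beta window mean of 19.3 thus was 19.3 above the left flank mean of 0.037 and differed from the right flank mean by -3.67.

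Both sides of the alpha window held scored genes. The left flank reached only to the chromosome end (190 kb) and held 64 targets averaging 17.2 ± 21.4, with a median of 10. The right flank averaged 16.7 ± 21.6, with a median of 10.5, over all its targets. The alpha window mean exceeded the mean of both flanks by 38.1, and its 6 targets ran from 0 to 118. This difference was not tested. The highest scores of the left flank were 114 at chr16:97558-97657, matched to POLR3K, which encodes a subunit of RNA polymerase III, then 68 in NPRL3 and 65 in MPG. Those of the right flank were 122 at chr16:426476-426543, 97 at chr16:448181-448207 and 95 at chr16:417783-417882. They were matched to TMEM8A, NME4 and MRPL28 in turn.

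Among the targets matched to genes of the fixed list next to the alpha cluster, only the 1 of POLR3K, with 114, scored above the lower HBQ1 value of 73. Right flank targets matched to genes outside that list also did, with scores of 122, 97 and 95. So did a right flank target with a score of 92 that matched no gene. NPRL3, whose introns hold the main enhancers of the alpha-globin genes, had 20 matched targets with scores from 3 to 68 and a median of 16. LUC7L, a splicing factor gene on the other side, had 11 with scores from 8 to 33 and a median of 14. MPG, a DNA repair glycosylase gene, had 7 from 2 to 65, with a median of 29. SNRNP25 had 5 from 8 to 38, FAM234A had 11 from 4 to 30, and AXIN1, a Wnt pathway scaffold gene, had 15 from 0 to 57. RHBDF1 had 15 of 0 to 7, ARHGDIG 5 of 0 to 2 and PDIA2 7 of 0 to 3. All 14 matched targets of RGS11 scored 0. These counts and ranges cover matched targets only. A gene was matched for 57 of 64 left flank and 105 of 128 right flank targets. An unmatched target with a score of 51 lay between targets matched to FAM234A.

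**Figure D3:**
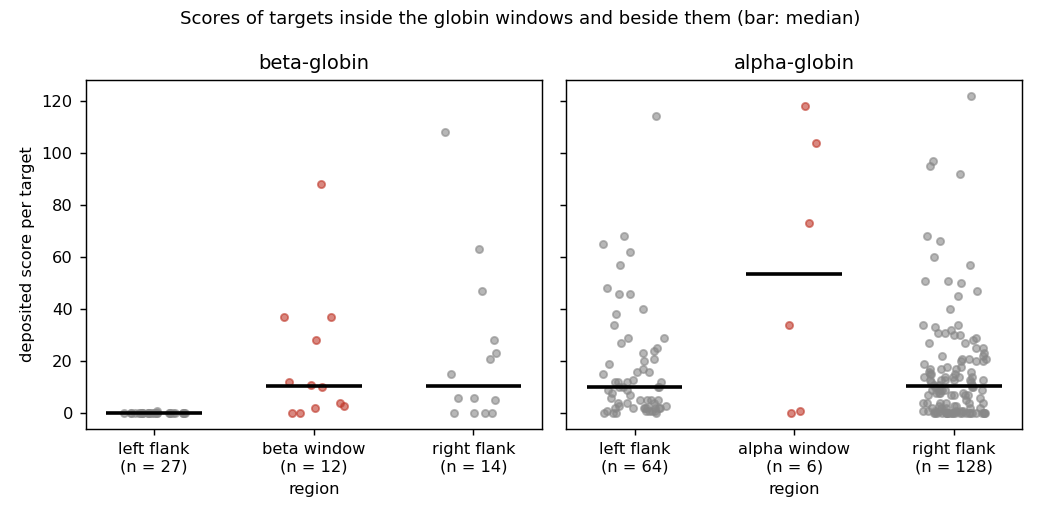
Deposited score per target (vertical axis) in the left flank, the globin window and the right flank of each locus; each point is 1 target, shifted sideways at random, and bars are medians. The beta window (median 10.5) lies between a left flank with 26 of 27 targets at 0 and a right flank with a median of 10.5; the alpha window has 6 targets with a median of 53.5 beside medians of 10 and 10.5.

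Numbering in the flanks was nearly complete. The beta flanks missed no number and the alpha flanks 1, against 9 and 3 in the windows themselves. A further number was missing between the last beta target and the right flank. The alpha window was also sparse, with 1.20 targets per 10 kb against 3.37 and 4.27 in its left and right flanks. The beta window had 1.71 per 10 kb, above its flanks with 0.900 and 0.467. Targeted length was 1169 nt in the beta window and 675 nt in the alpha window.

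The other globins of the body and the alpha-chain chaperone were looked for by the same length patterns on their own chromosomes. MB (myoglobin, the oxygen store of muscle) matched 4 targets in a row, of 12 in the rebuilt set, between 36003491 and 36011619 on chromosome 22, and all 4 scored 0. NGB (neuroglobin) matched 6 in a row between 77733014 and 77737190 on chromosome 14, and all 6 scored 0. AHSP, which encodes the chaperone of free alpha chains in erythroid cells, matched 4 in a row between 31539284 and 31539778 on chromosome 16, with scores of 0, 13, 8 and 22. No number was missing within these 3 runs of targets. CYGB (cytoglobin) had no match of 4 targets in a row and is not described.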

How the data were processed

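The only file used was the deposited list of capture intervals, which serves the 3 libraries alike. The authors aimed at 100 nt on both sides of every intron in GENCODE release 12 and left out exons, repeats and parts with high transcription in public K562 data, per the labels' protocols. The submitters' processing notes name hg19, Bowtie2, TopHat2 and bedtools. The score column was used as deposited by the authors, and no source used here explains what it measures. Start and end were read as deposited and written 1-based. Sequencing depth was not analysed here.

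Targets fully inside each window were kept. Rebuilt targets were the 100 nt ends of all introns of GENCODE release 29, merged, minus exons. Neighbouring targets were matched on both widths and the gap within 1 nt, accepting a single match among the rebuilt pairs of a locus or flank. On other chromosomes 4 targets in a row were required, a minimum set after a match of 3 for CYGB was seen. No coordinate was converted. One reference transcript of 3 exons was taken per gene (such as HBB-201, HBD-206, HBZ-201 and HBM-201). The rule for named genes took all 10 genes, every target of the windows, the 3 highest targets of each flank and fixed lists of neighbouring and related genes. Of the neighbouring genes, TRIM6, TRIM34, TRIM5 and TRIM22 had no matched target, and another is not reported here. Members and lists were chosen with earlier results of these data known. The matching was tested on simulated lists made from the rebuilt set of each window, with the right edges moved and targets dropped: over 50 draws each, 899 of 900 targets of the beta window and 649 of 650 of the alpha window were named rightly and 0 wrongly. Every simulated target had its counterpart in the rebuilt set, and edges moved by no more than the allowance of 1 nt. The simulation therefore checks the procedure and does not measure errors in naming the deposited targets. Differences between annotation releases were not simulated. The scripts ran on Python 3.11.15 with pandas 2.3.3, numpy 2.4.6 and, for figures, matplotlib 3.10.9.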

Additional observations from a re-analysis of the deposited data

How the results depend on the processing

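The list has 1 value per target and no library columns, so no replicate could be left out. No paired analysis was possible because all 3 libraries share that single list. The beta window's mean score was 11.5 above that of both flanks together but differed from that of the right flank alone by -3.67, so its direction rested on which flank was used. With flanks of 0.1 Mb the difference was 4.45 and with 1 Mb 14.7. In the alpha window the difference stayed between 37.8 and 41.1. With borders moved out by 10 kb the alpha window held 16 targets in place of 6, since it then reached the neighbouring genes. Missing numbers in the beta window were 9, or 10 when breaks at the border counted. The match by length needed the allowance of 1 nt. With exact lengths and plain intron edges only 2 beta and 0 alpha targets were matched. With the right edge of introns moved 1 nt inward, 9 and 4 were matched exactly, and with the left edge moved, 8 and 4. These exact settings, and the basic transcripts (9 and 6 matched), were chosen after the data were seen. Counts of 12 and 6 targets limit any comparison of scores.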
